A study of Homo sapiens with 2 samples.

Results

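The genes described here are 57 protein-coding genes of DNA damage response and repair, taken from a fixed list out of 20033 protein-coding genes with a RefSeq transcript. The list covers mismatch repair, homologous recombination, end joining, base excision and single-strand break repair, nucleotide excision repair, the Fanconi anaemia pathway and checkpoint signalling. It was drawn up by pathway, with earlier results of these data known. The data are ChIP-seq (chromatin immunoprecipitation followed by sequencing) peaks of PHF8 in RKO, an established human colon carcinoma line that is deficient in mismatch repair. One group was transfected with vector and the other with a plasmid for APOC2 overexpression, both were precipitated with the same PHF8 antibody lot, and each group had 1 library with its own peak table. There were 4015 peaks in the vector table, and the APOC2 table had 8928 peaks. With 1 library per group there is no replicate error, no test was made between the groups, and every difference below describes these libraries.

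A cell meets several kinds of DNA lesion with separate sets of proteins. Mismatch repair corrects replication errors, excision repair cuts out damaged bases or bulky lesions, homologous recombination and end joining rejoin broken ends, the Fanconi anaemia pathway removes crosslinks between the strands, and checkpoint kinases hold the cell cycle meanwhile. PHF8 is a histone lysine demethylase whose PHD finger binds histone H3 trimethylated at lysine 4, a mark of active gene starts. A gene was called occupied when the midpoint of a peak lay within 1 kb of its annotated start or end.

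At their starts these genes were mostly rich in CpG. The stretches below, of 120 bases before the annotated start, show the members with a peak in both tables at their start, the XPC and RAD51C starts as members with a peak in the APOC2 table only, and the ERCC1 and TP53BP1 starts as members with no peak. They are RefSeq sequence of GRCh38.p14, written 5′ to 3′ on the strand of the gene, with each CG dinucleotide in capitals.
PARP1 (chr1:226408094-226408213, minus strand): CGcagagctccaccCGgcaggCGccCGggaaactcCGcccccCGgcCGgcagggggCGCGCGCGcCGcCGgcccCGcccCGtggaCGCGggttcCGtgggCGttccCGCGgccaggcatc
XPA (chr9:97697341-97697460, minus strand): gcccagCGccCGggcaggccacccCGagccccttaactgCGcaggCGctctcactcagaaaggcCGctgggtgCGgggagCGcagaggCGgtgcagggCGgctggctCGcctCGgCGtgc
PARP2 (chr14:20343515-20343634, plus strand): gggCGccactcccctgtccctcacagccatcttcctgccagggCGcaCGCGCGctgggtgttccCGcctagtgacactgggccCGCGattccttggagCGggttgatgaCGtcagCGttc
CHEK2 (chr22:28741821-28741940, minus strand): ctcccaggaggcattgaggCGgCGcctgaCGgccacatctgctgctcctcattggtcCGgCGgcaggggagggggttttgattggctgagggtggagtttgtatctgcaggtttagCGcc
XPC (chr3:14178602-14178721, minus strand): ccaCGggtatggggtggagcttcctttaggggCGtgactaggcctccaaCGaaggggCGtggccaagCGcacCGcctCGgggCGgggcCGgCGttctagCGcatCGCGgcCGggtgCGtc
RAD51C (chr17:58692453-58692572, plus strand): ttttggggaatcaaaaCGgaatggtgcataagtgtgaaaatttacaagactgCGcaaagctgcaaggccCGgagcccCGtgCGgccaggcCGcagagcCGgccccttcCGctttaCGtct
ERCC1 (chr19:45451548-45451667, minus strand): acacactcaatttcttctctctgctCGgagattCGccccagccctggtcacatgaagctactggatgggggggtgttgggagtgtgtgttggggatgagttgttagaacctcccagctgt
TP53BP1 (chr15:43510641-43510760, minus strand): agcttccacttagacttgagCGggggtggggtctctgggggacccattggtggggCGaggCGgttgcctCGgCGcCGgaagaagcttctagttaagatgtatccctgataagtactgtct
The PARP1 stretch holds 21 CG dinucleotides, the CHEK2 stretch 6 and the ERCC1 stretch 2. The TP53BP1 stretch, with no peak, holds 6, the same number as CHEK2. ERCC1 is not typical of the members with no peak. From 250 bases before to 50 after the start it holds 5 CG dinucleotides and TP53BP1 holds 20, while the median of members with no peak is 25. The median of members with an APOC2 peak is 29.

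Of the 57 genes, the vector table had a peak at 5 (8.77%) and the APOC2 table at 29 (50.9%). Over all protein-coding genes these shares were 5.95% and 23.8%. All 5 genes of the vector table, PARP1, PARP2, CHEK2, RAD52 and XPA, were also occupied in the APOC2 table. A further 24 genes had a peak in the APOC2 table only (18% of all coding genes), none had one in the vector table only (0.105%), and 28 had none in either table. The APOC2 table thus held 5.8 times as many occupied members as the vector table, against 4.01 times as many coding genes. These counts depend on how many peaks were listed. With the 4015 peaks of highest fold enrichment taken from each table, 9 members (15.8%) were occupied in the APOC2 table and 5 in the vector table, 1.8 times as many, against 8.85% and 5.95% of coding genes, 1.49 times as many. CHEK2, PARP2 and XPA were then occupied in both tables, 6 members in the APOC2 table only, and PARP1 and RAD52 in the vector table only. With all peaks, in the vector table the members' share was near that of all coding genes, and in the APOC2 table it was above it.

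**Figure D1:**
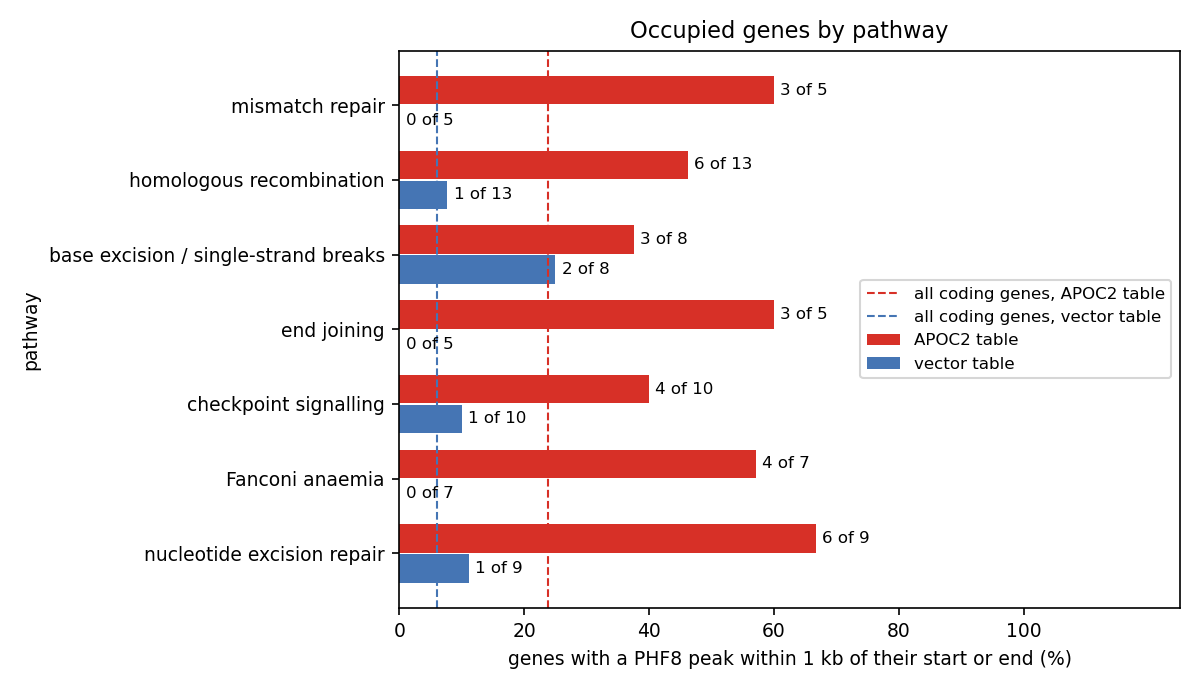
Share of genes of each pathway with a PHF8 peak within 1 kb of their start or end, in the APOC2 table (red bars) and in the vector table (blue bars), with the counts beside each bar; dashed lines give the shares over all protein-coding genes, 23.8% and 5.95%. In every pathway the APOC2 bar lies above its dashed line, while 3 pathways have no gene in the vector table.

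The APOC2 counts by pathway were 3 of 5 genes for mismatch repair, 6 of 13 for homologous recombination, 3 of 5 for end joining, 3 of 8 for base excision and single-strand break repair, 6 of 9 for nucleotide excision repair, 4 of 7 for the Fanconi anaemia pathway and 4 of 10 for checkpoint signalling. The vector table had no occupied gene in mismatch repair, end joining or the Fanconi anaemia pathway. With so few genes per pathway, the order of the pathways rests on 1 or 2 genes each.

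Mismatch repair starts with recognition of the mispaired base by MSH heterodimers. MSH3 and MSH6, the partners that give these dimers their preference for loops or for base mismatches, were both occupied in the APOC2 table only. At MSH3 the peak (chr5:80654681-80654926) had a summit pileup of 31 fragments and a fold enrichment over local background of 7.39, and its midpoint lay 151.5 bp from the MSH3 start. At PMS1, a MutL-type protein, the peak had a pileup of 30 and a fold enrichment of 5.17, and at MSH6 the fold enrichment was 4.24. PMS2, the endonuclease subunit of the main MutL dimer, had its nearest peak 49796 bp away, and EXO1, the exonuclease that removes the mispaired strand, 207619 bp away, both in the APOC2 table.

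In homologous recombination, a broken end is repaired from an intact copy of the sequence. RAD51C, XRCC2 and XRCC3, which act in the strand exchange step, were occupied in the APOC2 table only, while RAD51B and RAD51D were in neither. The RAD51C peak (chr17:58692601-58692835) had a pileup of 26 and a fold enrichment of 6.24, and the XRCC3 peak (chr14:103715786-103716052) had 38 and 5.09. The XRCC3 midpoint lay 109.0 bp from a boundary of ZFYVE21 and 468.0 bp from XRCC3. BARD1, the partner of BRCA1 in a ubiquitin ligase, had a peak of fold enrichment 3.67, and BRCA1 itself, with its annotated start on chromosome 17, had none within 19203 bp. BRCA2 and PALB2, which act together at the break, had none. Of the MRE11-RAD50-NBN complex, which binds broken ends, NBN alone was occupied, with a pileup of 14 and a fold enrichment of 3.24, and its -log10 q of 2.22 was the lowest among the members in the APOC2 table.

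RAD52, a single-strand annealing protein, was the homologous recombination gene occupied in both tables. Its pileup was 28.70 in the vector table, with a fold enrichment of 3.71, and 46 in the APOC2 table, with 6.14. These peaks (chr12:991329-991725 and chr12:990932-991598) lay at the outermost annotated end of RAD52, which falls inside ERC1, and their summits were over 41 kb from the RAD52 start given by the RefSeq sequence table (41711 bp and 41692 bp). At that start itself the APOC2 table had a separate, weaker peak (chr12:949409-949672) with a pileup of 23 and a fold enrichment of 3.62, and the vector table had none. Counted at the start alone, RAD52 was thus occupied in the APOC2 table only.

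End joining rejoins broken ends with little or no homology. XRCC6 (Ku70), PRKDC (the catalytic subunit of DNA-PK) and LIG4 (the ligase of this pathway) had APOC2 peaks, and their partners XRCC5 (Ku80) and XRCC4 (the LIG4 cofactor) had none. The XRCC6 peak (chr22:41621326-41621562) had a pileup of 24 and a fold enrichment of 5.77. The PRKDC peak (chr8:47959917-47960160) had 32 and 4.83, with its midpoint 97.5 bp from the boundary of PRKDC that faces MCM4 and 902.5 bp from a boundary of MCM4. LIG4 had a fold enrichment of 3.85 and shared its peak with ABHD13, whose start lies 43 bp from that of LIG4. No end-joining pair (Ku70 and Ku80, LIG4 and XRCC4) thus had a peak at both of its genes.

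In base excision and single-strand break repair the poly(ADP-ribose) polymerases PARP1 and PARP2, which sense strand breaks, were occupied in both tables. At PARP1 (vector chr1:226407614-226408022, APOC2 chr1:226407650-226408061) the pileup was 23.75 and 33 and the fold enrichment 4.12 and 4.98. At PARP2 (chr14:20343082-20343377 and chr14:20343076-20343371) the pileup was 47.50 and 44 and the fold enrichment 8.50 and 9.35. The PARP2 peak lay before the start. Its APOC2 midpoint was 152.5 bp from a boundary of RPPH1, the gene of the RNase P RNA, and 411.5 bp from the PARP2 start. The peak therefore cannot be given to PARP2 rather than RPPH1. APEX1, the abasic site endonuclease, had a peak in the APOC2 table only, with a pileup of 18 and a fold enrichment of 4.27. The midpoint of that peak was nearer to a boundary of OSGEP (120.5 bp) than to APEX1 (293.5 bp). The glycosylases OGG1 and UNG, the scaffold XRCC1 and the ligases LIG1 and LIG3 had no peak by the 1 kb rule.

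Nucleotide excision repair had the largest share of occupied genes among the 7 pathways in the APOC2 table. XPC and the DDB1-DDB2 dimer, which find the lesion, had peaks in that table only. The XPC peak (chr3:14178144-14178606) had a pileup of 35 and a fold enrichment of 6.96, while DDB1 had a fold enrichment of 5.59 and DDB2 of 3.17. ERCC2, a helicase of TFIIH, had a pileup of 19 and a fold enrichment of 5.65 (chr19:45370188-45370517), and ERCC3, the other TFIIH helicase, had no peak. ERCC4, the catalytic subunit of the nuclease that cuts before the lesion, had a fold enrichment of 5.54, and its partner ERCC1 and the nuclease ERCC5, which makes the other cut, had none.

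XPA, which verifies the lesion, had the highest fold enrichment of the 29 members in the APOC2 table. The pileup was 38.59 in the vector table (chr9:97696866-97697332), with a fold enrichment of 7.22. In the APOC2 table (chr9:97696853-97697351) it was 57, the fold enrichment was 12.5 and the -log10 q 42.9. No boundary of another gene lay within 1 kb of these peaks.

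Of the Fanconi genes, FANCA, FANCC and FANCL of the core ubiquitin ligase complex and the helicase gene BRIP1 were occupied in the APOC2 table only. FANCL, the ligase subunit, had the highest fold enrichment of all members that were occupied in the APOC2 table only, 10.1 with a pileup of 20 over a local background of 1.09 (chr2:58240873-58241342). The FANCA peak (chr16:89816220-89817044) had a higher pileup of 38 over a background of 5.26 and a lower fold enrichment of 6.23. FANCD2 and FANCI, the pair that the core complex ubiquitinates, and the core subunit FANCG had no peak.

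Checkpoint signalling runs from the kinases ATM and ATR to CHEK1 and CHEK2. ATM, ATRIP (the partner of ATR) and CHEK1 had APOC2 peaks only. The ATRIP peak (chr3:48446412-48447029) had a pileup of 32 and a fold enrichment of 6.39. The ATM peak (chr11:108222368-108222585) had 17 and 6.01, and its midpoint lay 161.5 bp from a boundary of NPAT and 590.5 bp from ATM. The genes of the chromatin response next to the break, MDC1, RNF8, RNF168 and TP53BP1, and TOPBP1, an activator of ATR, had no peak in either table.

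CHEK2 was the checkpoint gene with peaks in both tables. In the vector table (chr22:28742137-28742403) its pileup was 28.70 and its fold enrichment 5.01, and in the APOC2 table (chr22:28742070-28742405) these were 45 and 9.21. Both peaks lay before the CHEK2 start, and the APOC2 midpoint was nearer to HSCB (205.5 bp) than to CHEK2 (403.5 bp).

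**Figure D2:**
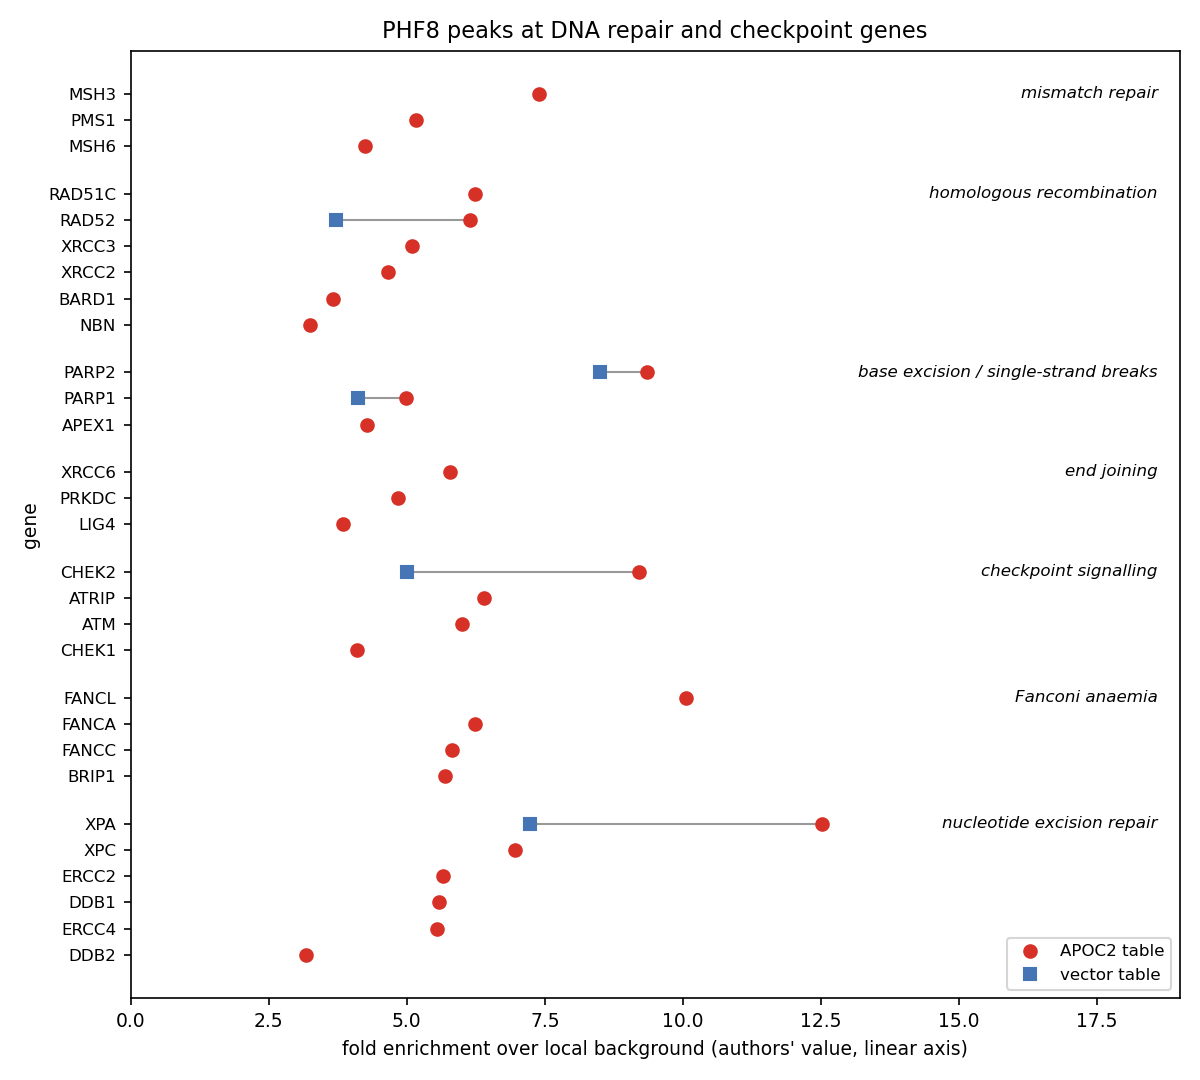
Fold enrichment over local background of the strongest peak at each occupied gene, by pathway, in the APOC2 table (red circles) and, where there was a peak, in the vector table (blue squares); a grey line joins both values of a gene. The APOC2 value lies to the right of the vector value at all 5 genes with both, and XPA reaches 12.5.

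The 1 kb limit placed NBN, at 687.5 bp, as the outermost occupied gene in the APOC2 table and ATR and OGG1 as the first outside it. The ATR peaks lay beyond the annotated gene end opposite to its start, 1102.5 bp away for vector and 1206.5 bp for APOC2, with fold enrichments of 3.37 and 7.01. The OGG1 peaks lay at 1365.5 and 1410.5 bp, with 5.27 and 5.31. With a 3 kb window both genes were occupied in both tables, which gave 7 members for vector (12.3%, against 6.58% of coding genes) and 31 for APOC2 (54.4%, against 26.2%). In the APOC2 table the next gene was PALB2, 7008 bp from a peak midpoint. In the vector table the next was MSH3, 3379.5 bp from the midpoint of a strong peak with a fold enrichment of 41.3, which lies outside both windows.

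At the 5 genes with a peak in both tables the fold enrichment was higher in the APOC2 table each time. On the log2 scale the APOC2 value exceeded the vector value by 0.14 at PARP2, 0.27 at PARP1, 0.73 at RAD52, 0.79 at XPA and 0.88 at CHEK2, with a median of 0.73. Over the 1171 coding genes occupied in both tables the median was 0.52 and 89.4% had the higher fold enrichment in the APOC2 table, so 5 of 5 is near the background; with depth-scaled pileup, explained next, 92.1% of them did and again all 5 members. The steps in the values show the relative depth. Vector pileups were multiples of 0.98953, and 65.6% of the APOC2 backgrounds between 1.5 and 20 were multiples of 0.833 within 0.01. If that second step is 1 control fragment and the control was common, the depth of the APOC2 library was 0.824 times that of vector. The other APOC2 backgrounds were off that step, so this depth is less certain than the vector step.

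With the summit fragments scaled by that depth, the ratio was 1.93 at RAD52 (exact binomial 95% interval 1.18 to 3.18), 1.88 at CHEK2 (1.16 to 3.11) and 1.77 at XPA (1.16 to 2.74). It was 1.67 at PARP1 (0.957 to 2.95) and 1.11 at PARP2 (0.722 to 1.71), where the intervals include equal signal. These intervals cover counting error only, from 24 to 48 vector and 33 to 57 APOC2 fragments per summit. They take the inferred depth of 0.824 as exact, and which of them lie above equal signal depends on that uncertain value. The intervals do not cover variation between cultures, and PCR copies cannot be told from independent fragments, since no molecular identifiers were used. On the log2 scale, depth-scaled pileup was higher in the APOC2 table by a median of 0.83 at these 5 genes. Over the 1171 coding genes occupied in both tables the median was 0.56. The intervals were set against equal signal only, not against that coding-gene median.

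**Figure D3:**
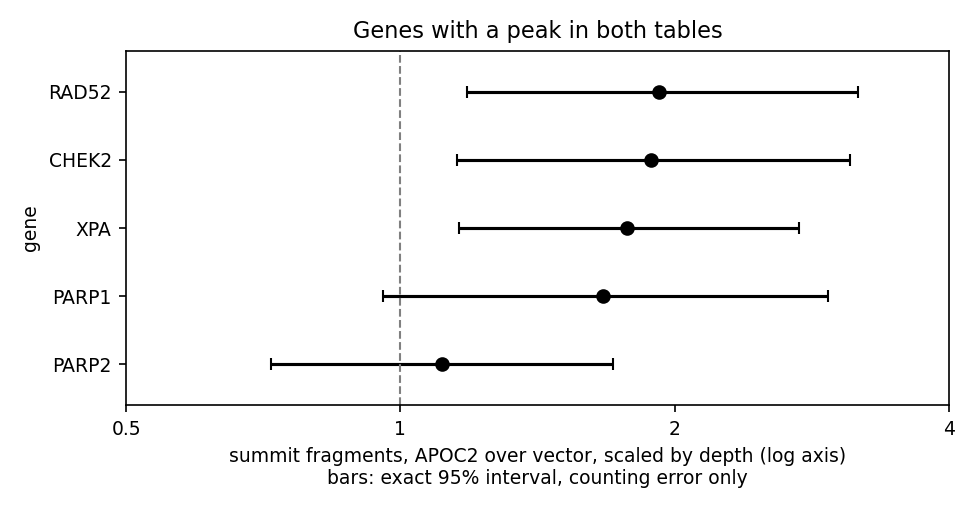
Ratio of summit fragments, APOC2 over vector, scaled by relative depth, at the 5 genes with a peak in both tables (points, log axis), with exact 95% intervals that cover counting error only. At the inferred depth, which is uncertain and taken as exact, the intervals of RAD52, CHEK2 and XPA lie above 1. Those of PARP1 and PARP2 include it. Of the 1171 coding genes occupied in both tables, 92.1% had the higher depth-scaled pileup in the APOC2 table.

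A gene without a vector peak is not a gene without vector signal. The lowest -log10 p in the vector table was 4.70. At the local backgrounds of the 24 APOC2-only members, in control units, a vector summit of 8 to 24 fragments would have reached it, by the Poisson tail that matched the listed p-values within 0.1 for 99.7% of vector peaks. The depth-scaled APOC2 pileup was 1.12 (NBN) to 3.002 (FANCL) times that limit, with a median of 1.95. The median over the 3606 coding genes occupied in the APOC2 table only was 1.86. A ratio above 1 was nearly fixed by the choice of called peaks (99.9% of those coding genes had one), and only its size describes the members. At NBN (1.12), DDB2 (1.2007), LIG4 and BARD1 (both 1.40) and APEX1 (1.44) a vector signal not far below the APOC2 signal would have gone uncalled. The APOC2-only members had a median fold enrichment of 5.57 (3.17 to 10.1) and a median pileup of 25, against medians of 5.004 and 27 for the APOC2-only coding genes.

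Few summits lay at the gene start itself. For 26 members with a known start, the strongest APOC2 peak had its summit within 1 kb of that start. Of these, 16 (61.5%) had the summit 100 to 300 bp into the gene and 9 had it before the start. The summit of 1 (DDB1, at 96 bp) lay within 100 bp of the start, and none lay more than 300 bp into the gene. RAD52 is not among the 26, but its weaker start peak had a summit 96 bp from the start. Among 3610 coding genes counted by their strongest peak, the share between 100 and 300 bp was 54.8% and the share within 100 bp was 11.1%. The 9 summits before the start were those of XRCC2 at 213 bp, LIG4, FANCA, APEX1, PARP2, CHEK2, XRCC3, ATM and CHEK1, the last at 587 bp. Of these, PARP2, CHEK2, APEX1, ATM, CHEK1, LIG4 and XRCC3 were also the 7 members whose APOC2 peak was nearer to a boundary of another gene. For CHEK1, the start given by the RefSeq sequence table lies inside the annotated gene. The CHEK1 peak also lies inside it, with its midpoint 520 bp from the outermost annotated start.

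**Figure D4:**
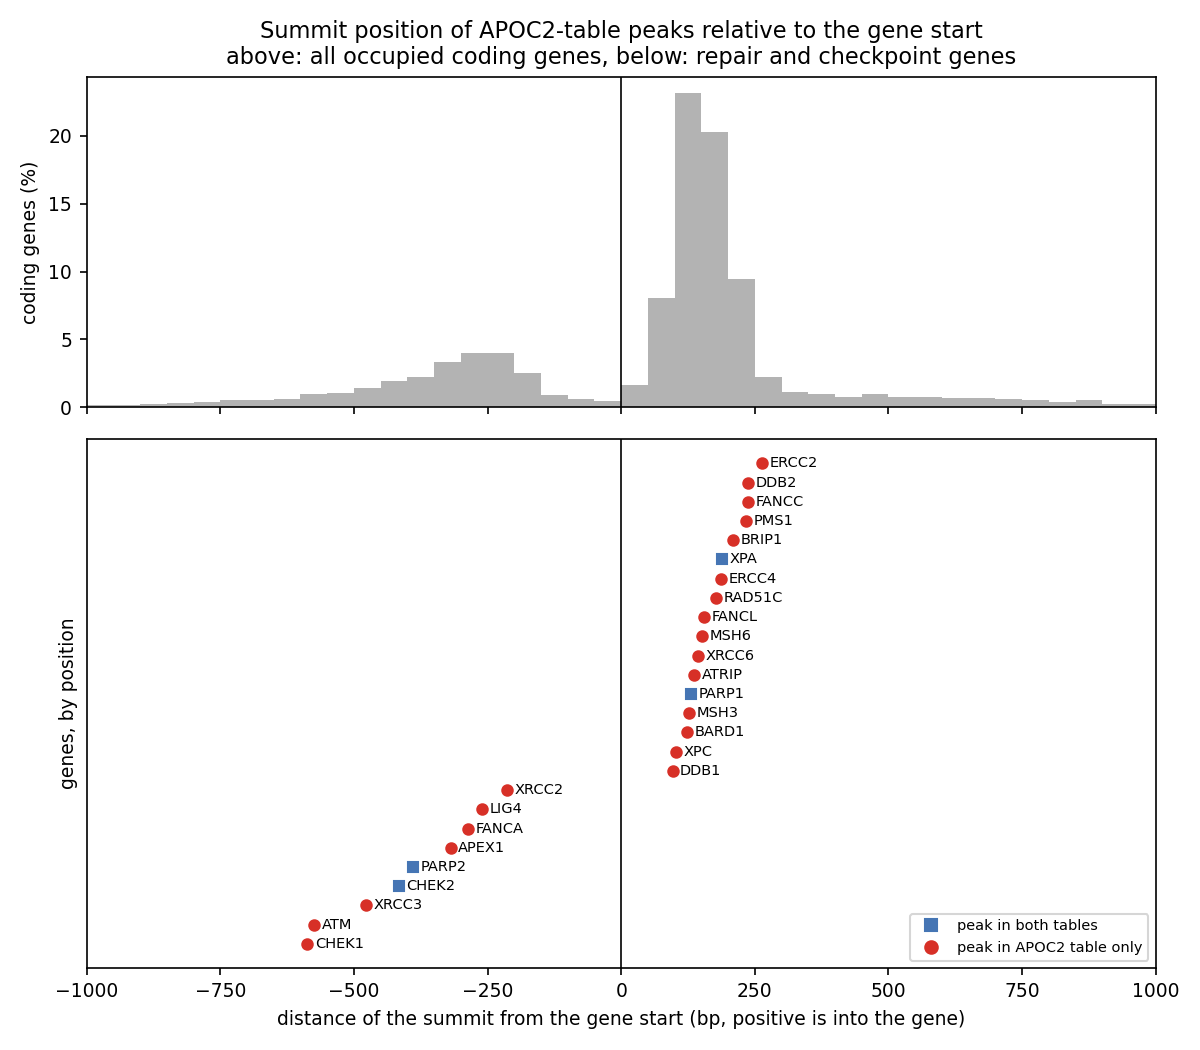
Distance of the summit of the strongest APOC2-table peak from the gene start, positive into the gene. The upper panel gives the share of 3610 coding genes in 50 bp bins and the lower panel each of 26 members (blue squares, peak in both tables; red circles, APOC2 table only); the upper panel dips around the start, where 11.1% of coding genes lie within 100 bp, and 16 members sit between 100 and 300 bp into the gene.

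Shared starts were common among the members. Of 53 members with a start in the RefSeq table, 21 (39.6%) had another gene starting on the opposite strand within 1 kb upstream, against 18.3% of coding genes. Of these 21, 13 (61.9%) were occupied in the APOC2 table, and of the other 32 members 14 (43.8%) were. Over coding genes the shares were 38.1% and 21.4%. With vector, 1 of the 21 (4.76%) and 4 of the 32 (12.5%) were occupied, and over coding genes the shares were 9.49% and 4.76%. The 4 were PARP1, PARP2, RAD52 and XPA. Of these, the RAD52 peak lay 41711 bp from its start, and the PARP2 peak was nearer to RPPH1 than to PARP2. With so few genes, the order of the members' vector shares carries little weight. Not every member with a shared start had a peak: BRCA1, BRCA2, MRE11, PALB2, PMS2, XRCC4, TP53BP1 and TOPBP1 had such a neighbour and none. The BRCA1 start used here is the outermost annotated one, 82 bp from that of NBR1. Among all 29 members occupied in the APOC2 table, 17 had a boundary of another gene within 1 kb of the peak midpoint. At those the peak cannot be assigned to the member alone. That count was not taken over coding genes, so it is not shown to be particular to the members.

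Most members were CpG-rich by the rule given next, so that call did not separate the occupied from the other members. A start window of 300 bases, from 250 before to 50 after the start, was called CpG-rich when its ratio of observed to expected CG was at least 0.6 and its GC content at least 50%. Of the members with a sequence, 25 of 27 occupied in the APOC2 table (92.6%) and 24 of 26 in neither table (92.3%) had such a window. Over coding genes the shares were 89.2% with and 55% without an APOC2 peak. The median ratio was 0.917 in members with an APOC2 peak and 0.878 in members in neither table. Over coding genes it was 0.878 with and 0.69 without an APOC2 peak, and these differences were not tested. Of the 49 CpG-rich members, 25 (51%) were occupied in the APOC2 table and 5 (10.2%) in the vector table, and over CpG-rich coding genes these shares were 34.4% and 7.91%. The members' share in the APOC2 table was therefore above that of CpG-rich coding genes as well, though by less than above that of all coding genes.

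The same windows were searched on both strands for short motifs. The letters CCGGAAG, a core of binding sites of ETS factors, were found in 3 of 27 members occupied in the APOC2 table (11.1%: ATM, LIG4 and ERCC4) and in 13 of 26 members in neither table (50%). Over coding genes the order was the opposite, with 22.4% of genes with an APOC2 peak and 11.6% of those without, and 14.2% of all. The stretches below show the match in capitals for ATM, which had an APOC2 peak, and for RAD50, RNF168 and ATR, which had no peak, with the strand of the gene written 5′ to 3′ (RefSeq, GRCh38.p14).
ATM (chr11:108223041-108223066, plus strand): gcagggtttgaaCCGGAAGcgggagt
RAD50 (chr5:132556874-132556904, plus strand): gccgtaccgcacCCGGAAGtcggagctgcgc
RNF168 (chr3:196503838-196503868, minus strand): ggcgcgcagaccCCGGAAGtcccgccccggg
ATR (chr3:142578809-142578839, minus strand, match on the other strand): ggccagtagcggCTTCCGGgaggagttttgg
The match ended 8 bases before the start at ATM, 85 at RAD50, 82 at RNF168 and 88 at ATR.

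The letters GCGGGAA, a core of E2F sites, were found in 11 of 27 members occupied in the APOC2 table (40.7%, among them PARP1, PARP2, RAD52, MSH6, FANCL and XPC) and in 5 of 26 in neither table (19.2%: FANCD2, FANCG, RAD51D, XRCC1 and LIG1). Over coding genes the shares were 11.3% with and 7.71% without an APOC2 peak. With 1 more base (GCGGGAAA), 4 of 27 and 2 of 26 members matched, at MSH6, XPC, XRCC2 and FANCC and at FANCD2 and LIG1. Over coding genes 2.71% with and 2% without an APOC2 peak matched. The letters GCGCATG, a core of NRF1 sites, were in 5 of 27 occupied members (18.5%: FANCL, XRCC2, ATM, LIG4 and XRCC6) and in 1 of 26 in neither table (UNG), against 9.07% and 4.84% of coding genes. Both cores had been shortened from longer letters after a first search. The E-box CACGTG was in 5 of 53 members (9.43%) and 8.88% of coding genes, and CCAAT in 43.4% and 36.4%. No member window held TATAAA, which 9.63% of coding windows held. None of these shares was tested.

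**Figure D5:**
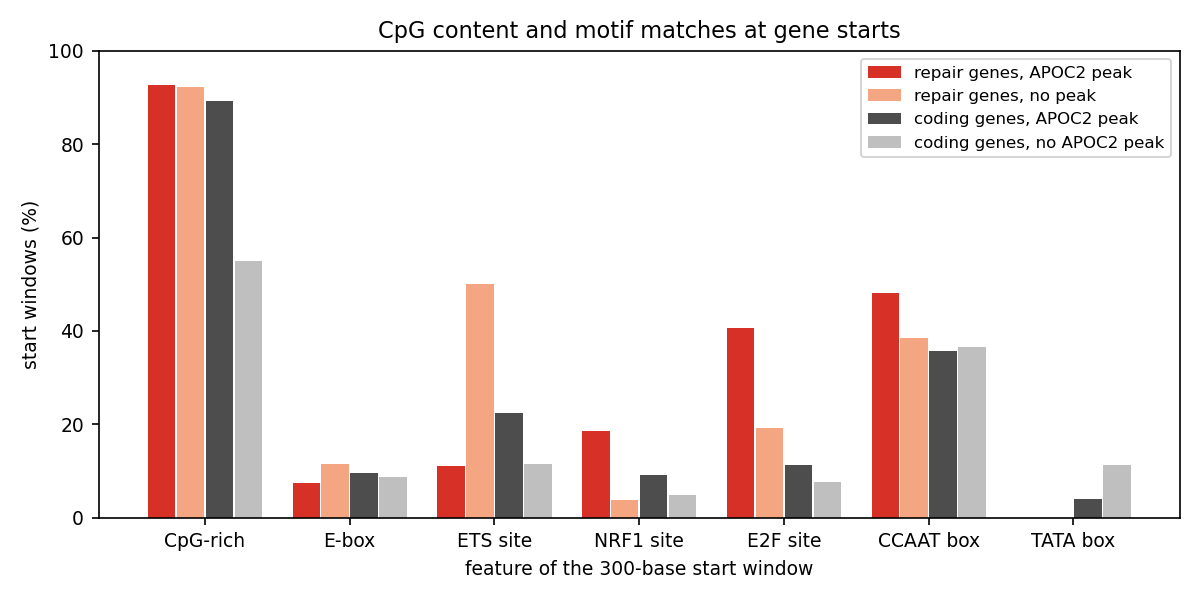
Share of 300-base start windows that were CpG-rich or held each motif, for members with an APOC2 peak (red), members with no peak (light orange), coding genes with an APOC2 peak (dark grey) and coding genes without (light grey). CpG-rich windows are at 92.6% and 92.3% in the members, while the ETS site is at 11.1% in members with a peak and 50% in those without.

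The chromosome also went with the vector calls. On chromosome 8, 65.7% of the coding genes occupied in the APOC2 table were occupied in the vector table too, on chromosome 9 it was 52.3%, and on all other chromosomes together 19.6%. XPA lies on chromosome 9 and was occupied in both tables. FANCC, also on chromosome 9, and PRKDC and NBN on chromosome 8 were occupied in the APOC2 table only, and FANCG on chromosome 9 in neither.

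A second list of 75 genes of the same pathways, not among the members, had 9 genes occupied with vector (12%) and 29 with APOC2 (38.7%), against 5.95% and 23.8% of coding genes. The APOC2 table held 3.22 times as many occupied genes of this list as the vector table, below the 4.01 times of coding genes and the 5.8 times of the members. The 8 in both tables were CLSPN (an adaptor for CHEK1 activation), TIMELESS (a replication fork protein), ERCC8, SEM1 (a BRCA2 partner), the helicase gene WRN, RAD54B, PAXX (an end-joining factor) and PCNA (the sliding clamp). UIMC1 was occupied in the vector table only. RAD54B had the highest fold enrichment of these, 19.8 with vector and 22.9 with APOC2. CLSPN did not follow the 5 members, with fold enrichments of 7.95 and 7.87. By pathway, the APOC2 counts were 2 of 9 for mismatch repair, 4 of 13 for homologous recombination, 3 of 5 for end joining, 6 of 14 for base excision, 5 of 10 for nucleotide excision, 4 of 10 for the Fanconi anaemia pathway and 5 of 14 for checkpoint signalling. The order of pathways differed from that in the members, with mismatch repair last and end joining first.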

How the data were processed

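Peak tables of PHF8 ChIP-seq, 1 per library, were used as deposited. Per the submitters' processing notes, Bowtie2 2.2.9, MACS2 2.0, HOMER and the build hg38 were involved, with no role given. The control library, thresholds and handling of duplicate reads are not given in the sources used here. Per the file headers, the deposited tables give the signal at each summit as a fragment pileup and the fold enrichment, a ratio with 1 added to pileup and background. The deposited columns with lost names hold -log10 p and -log10 q, judged from place and values. All fold enrichments, pileups and q-values are the authors'.

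Groups came from the treatment label. Peaks were assigned with Python 3.11.15 and pandas 2.3.3 to genes of a RefSeq table (GRCh38.p14, 57 of 57 members matched), and the strongest peak by fold enrichment was kept per gene. The assignment was tested on simulated peaks. Read totals are unknown, so precision rests on summit fragments. Start sequences came from a RefSeq table of the same build (53 of 57 members; those of FANCI, NBN, PRKDC and XRCC5 were not used here). Named in full were all members of the vector table and the APOC2-only members of highest fold enrichment in each pathway (up to 2), and the others by counts. ATR, OGG1, the neighbours and the motif examples were chosen after their values were seen. The members, lists, motifs and CpG limits were chosen with earlier results of these data known. No cell type markers could be checked in peak tables.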

Additional observations from a re-analysis of the deposited data

How the results depend on the processing

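With 1 library per group no replicate could be left out. No paired analysis was possible because each group has 1 library and the values come from no test. The counts and the median were recomputed under 6 settings for peaks and genes, the median also under 5 other measures, and, chosen after seeing the data, without peaks nearer to a boundary of another gene. A count was called changed when it moved by more than 1.5 times. The log2 ratio stayed positive throughout (0.53 to 1.06). Direct overlap of peak and boundary left 0 members for vector and 7 for APOC2, all 7 there only, so that no ratio could be taken, and 4 and 8 of the second list. These were 0% and 12.3% of the members, against 1.45% of coding genes for vector and 8.55% for APOC2. A fold enrichment of at least 5 left 3 and 19 members (5.26% and 33.3%, against 3.21% and 14.1% of coding genes), and 17 of the second list in the APOC2 table. With equal numbers of top-ranked peaks, 9 members were occupied in the APOC2 table, 6 of them there only, and 11 of the second list, while 5 members stayed in the vector table, 2 of them there only. Without peaks nearer to another gene, 3 members were left for vector and 22 for APOC2. No share over coding genes was taken under that setting, so these counts have no background beside them. The 3 kb window, the q-value limit of 0.001 and the start-only rule changed no count by more than 1.5 times.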
